A study of Homo sapiens with 15 samples.

Results

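The miR-500, miR-502 and miR-532 cluster on the X chromosome was followed through all 5 conditions of a small RNA sequencing study of the m6A demethylase FTO. Its members were chosen by name, as the 10 mature arms hsa-miR-500a-3p, hsa-miR-500a-5p, hsa-miR-500b-3p, hsa-miR-501-3p, hsa-miR-501-5p, hsa-miR-502-3p, hsa-miR-502-5p, hsa-miR-532-3p, hsa-miR-532-5p and hsa-miR-660-5p, written without the species prefix from here on. All 10 arms had a row among the 2418 miRNAs counted in the knockdown libraries. In the precipitation libraries 9 of the 10 arms were among the 2189 miRNAs counted, and miR-500a-5p had no row.

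A miRNA is cut from a hairpin in a longer transcript, first by DROSHA and then by DICER, which leaves a duplex of a 5p and a 3p arm. One arm is usually kept in an Argonaute protein, where bases 2 to 8, the seed, pair with target mRNAs, and the other arm is mostly lost. The hairpins of this cluster are known to lie in introns of CLCN5, which encodes the endosomal chloride/proton exchanger ClC-5 that is mutated in Dent disease of the kidney, and are thought to be made from the same transcript. N6-methyladenosine (m6A) is a methyl mark on adenosine in RNA, which FTO can remove and which an antibody can precipitate.

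The cells were FTO1C1, FTO2D4 and FTO3C3, which are 3 uninduced clones of Flp-In 293 T-Rex, a derivative of HEK293 cells, a line of human embryonic kidney origin. Each clone gave 1 library after transfection with 10 nM scrambled siRNA and 1 after 10 nM FTO siRNA, both harvested at 48 h. Each clone also gave 1 library of small RNA precipitated with an anti-m6A antibody (m6A), 1 precipitated with an IgG isotype control antibody (IgG) and 1 of the starting small RNA (input). The labels of these libraries name no siRNA. There were thus 15 libraries in 5 groups of 3, and the spread within a group is that between clones of a single parental line. The counts used here are those of human mature miRNAs only, so FTO itself could not be checked in them. By qRT-PCR and Western blot, the paper reports that FTO was reduced in these clones but not removed.

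The sequences show which arms of the cluster resemble each other. RefSeq (GRCh38.p14) placed the 8 hairpins of the locus on the plus strand of the X chromosome at chrX:50003148-50014683, a stretch of 11.536 kb inside the span of CLCN5 (chrX:49922596-50099230), in the order MIR532, MIR188, MIR500A, MIR362, MIR501, MIR500B, MIR660 and MIR502. The table gives no exons, so the intron around each hairpin was not read from it. A mature sequence was found there for 9 of the 10 arms, all but miR-660-5p. The 3p arms of miR-500a, miR-500b, miR-501 and miR-502 are near-copies and are printed first, 5′ to 3′ with the seed in capitals:
miR-500a-3p: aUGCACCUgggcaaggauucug
miR-500b-3p: gCACCCAGgcaaggauucug
miR-501-3p: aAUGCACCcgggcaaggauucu
miR-502-3p: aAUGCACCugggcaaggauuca
The 2 arms of miR-532 are printed for contrast, since neither shares a run of more than 5 bases with miR-500a-3p, and miR-501-5p as the opposite arm of miR-501-3p:
miR-532-5p: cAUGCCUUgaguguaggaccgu
miR-532-3p: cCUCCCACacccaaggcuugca
miR-501-5p: aAUCCUUUgucccugggugaga

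The 4 related 3p arms share the 11-base run GGCAAGGAUUC, which is held by these 4 and by no other of the 2370 human mature sequences in the RefSeq table (0.169%). The seed AUGCACC is shared by miR-501-3p and miR-502-3p, whereas the seed of miR-500a-3p is the same stretch moved by a single base and that of miR-500b-3p is another. Where the arms align, with positions counted from the 5′ end of the arm named first, miR-500a-3p differs from miR-501-3p by U8C, from miR-502-3p by U21A and from miR-500b-3p by U8C and G9A. The longest run in common was 20 bases between miR-500a-3p and miR-502-3p and 13 bases between miR-500a-3p and each of miR-501-3p and miR-500b-3p. Since the authors' matching accepted reads with as few as 17 covered bases, short reads of these arms may have been counted on a relative, and each is given below with that uncertainty. The m6A consensus RRACH (R is A or G, H is A, C or U) was searched on the strand of the miRNA. It occurred in 1 of the 9 member sequences, miR-532-5p (GGACC at bases 16 to 20), against 20.7% of all 2370 mature sequences. The shorter motif AAC or GAC was also found in miR-532-5p alone, against 36.1% of all mature sequences.

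The knockdown libraries held 1991317 to 3876806 miRNA reads, the inputs 1408702 to 1500357, the m6A libraries 569501 to 4973238 and the IgG libraries 186446 to 786688, with FTO3C3 the shallowest IgG library. Counts were divided by these totals and are given as reads per 1000000 miRNA reads (RPM), without division by length. They are counts of reads and not of molecules. A single miRNA, miR-6080, took 41.3 to 47.8% of the reads of the m6A libraries, 58.0 to 71.6% of the IgG libraries and 15.5 to 28.4% of the inputs. A fold between these groups on the RPM scale therefore depends on that miRNA, and the median over all miRNAs is given beside each comparison. The cluster as a whole summed to 1340 ± 107 RPM with scrambled siRNA and 1355 ± 29.1 with FTO siRNA. It summed to 841 ± 124 in the input, 2391 ± 230 in the m6A and 342 ± 106 in the IgG libraries (mean ± SD, n = 3 each, as everywhere below).

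**Figure D1:**
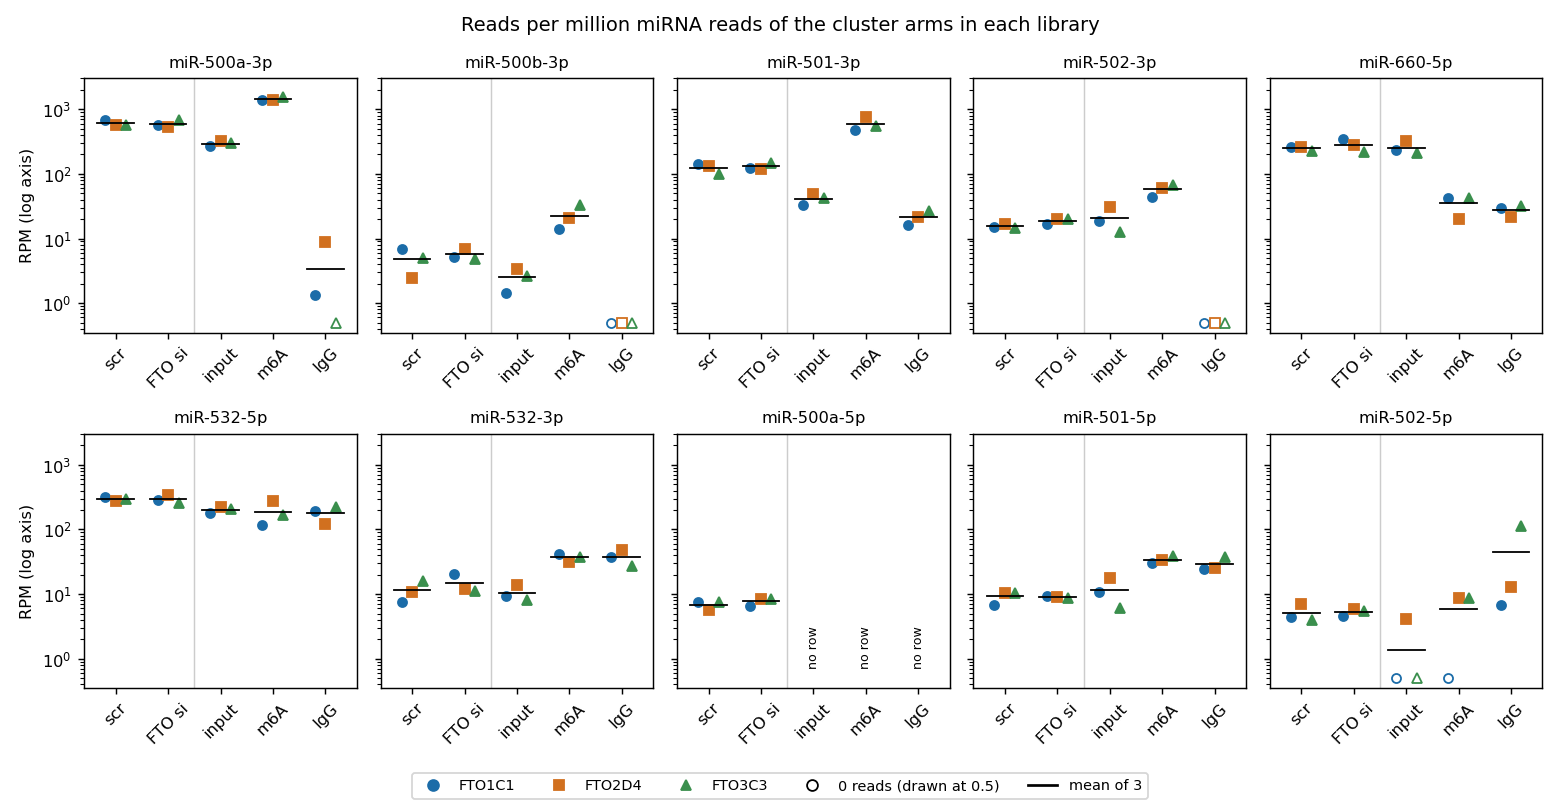
RPM of each arm (log axis) in the 15 libraries, by group, with 1 symbol per clone and a line at the mean of 3. The related 3p arms of miR-500a, miR-500b, miR-501 and miR-502 are higher in m6A than in IgG in every clone, miR-660-5p is low in both precipitates, and miR-532-5p stays within 118 to 339 RPM in all 15 libraries.

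Which arm of each hairpin was abundant was read from the cells with scrambled siRNA. There miR-500a-3p led in all 3 clones, with 687, 579 and 578 RPM in FTO1C1, FTO2D4 and FTO3C3. It was followed by miR-532-5p at 300 ± 22.2 RPM, miR-660-5p at 249 ± 18.3 RPM and miR-501-3p at 124 ± 22.7 RPM. The ranges of these 4 arms did not overlap, and their order was the same in all 3 clones. The other 6 arms lay at or below 17.05 RPM in every library of this group, from miR-502-3p at 15.6 ± 1.30 RPM down to miR-500b-3p at 4.78 ± 2.23 RPM. Each of these 6 overlapped its neighbour in the order, so they cannot be ranked further. At a cutoff of 15 RPM in each scrambled siRNA library, which the study set for calling a decrease, 4 of the 10 arms counted as expressed. These were the 4 named above, where 42.7% of all 2418 miRNAs met the cutoff.

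In the inputs, whose labels name no siRNA and which were counted in a separate table, the order at the top differed. The level of miR-500a-3p was 268, 319 and 298 RPM and that of miR-660-5p 231, 321 and 214 RPM, so that the ranges of the 2 arms overlapped. The level of miR-532-5p was 203 ± 21.9 RPM and that of miR-501-3p 41.6 ± 7.70 RPM. Levels were not tested between the inputs and the siRNA libraries, whose miRNAs were tabulated separately.

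The first comparison asked whether this partial knockdown of FTO changes the level of these miRNAs. No arm of the cluster passed the test in either direction after FTO knockdown: 0 of 10 were called at an adjusted p under 0.05, where 5.48% of the 2374 miRNAs tested were called, 4.97% higher and 0.505% lower. At an unadjusted p under 0.05 the count by edgeR was also 0 of 10. The share over all miRNAs at that threshold is not given here, so nothing is read from this count. DESeq2 called none of the 4 arms for which it gave an adjusted p (miR-500a-3p, miR-501-3p, miR-532-5p and miR-660-5p). Over all 2418 miRNAs it called 32 higher and 57 lower. The log2 fold changes ran from -0.05 for miR-500a-3p to 0.40 for miR-532-3p, with a median of 0.11, beside a median of 0.29 over all miRNAs tested. Only miR-532-3p of the 10 lay above that overall median.

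The leading arm miR-500a-3p held 573, 530 and 676 RPM with FTO siRNA, against 687, 579 and 578 RPM with scrambled siRNA. It was lower in FTO1C1 and FTO2D4 and higher in FTO3C3, and the groups overlapped. Its log2 fold change was -0.05 (SE 0.16, 95% interval -0.40 to 0.29, edgeR adjusted p = 0.847). For miR-660-5p the levels were 343, 276 and 216 RPM with FTO siRNA and 262, 257 and 228 RPM with scrambled siRNA. The clones again disagreed in direction, and the log2 fold change of miR-660-5p was 0.14 (SE 0.16, 95% interval -0.22 to 0.50). For miR-532-5p it was -0.05 (95% interval -0.42 to 0.32) and for miR-501-3p 0.09 (95% interval -0.36 to 0.53). These intervals leave room for changes of the size of the median over all miRNAs. As the libraries are of bulk RNA, fewer cells with a miRNA and less of it per cell cannot be told apart.

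The ratios of the low arms spread widely over the clones. In FTO1C1 miR-532-3p went from 27 to 72 reads, a within-clone RPM ratio of 2.79, while in FTO2D4 and FTO3C3 its ratios were 1.08 and 0.706. In FTO2D4 miR-500b-3p went from 6 to 24 reads, a ratio of 2.85, against 0.753 in FTO1C1 and 0.976 in FTO3C3. Only miR-502-3p was higher with FTO siRNA in all 3 clones, at ratios of 1.12, 1.17 and 1.38, and its groups overlapped by a narrow margin (log2 fold change 0.28, SE 0.20, edgeR adjusted p = 0.387). None of the expressed arms met the study's rules for an increase (mean ratio over 2 at 15 RPM or more) or a decrease (mean ratio under 0.5), which 1.45% and 0.165% of the 2418 miRNAs met. These shares were recomputed here, and the numbers of miRNAs behind them are not those the paper reports.

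**Figure D2:**
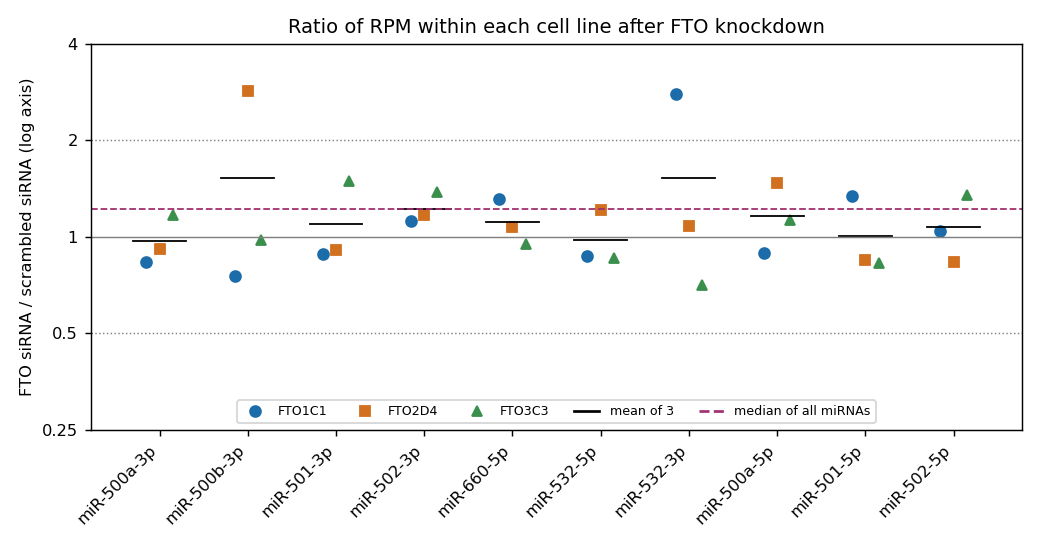
Ratio of RPM with FTO siRNA to RPM with scrambled siRNA within each clone (log axis), with a line at the mean of 3, dotted lines at ratios of 2 and 0.5, and a dashed line at the median over all miRNAs. For 9 of the 10 arms the clones lie on both sides of a ratio of 1, and the exception is miR-502-3p.

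The second comparison set the anti-m6A precipitate against the control precipitate of the same clone, to ask which miRNAs the m6A antibody brings down. All 4 related 3p arms were higher in m6A than in IgG and no other arm passed the test. That is 4 of the 8 members tested and 0 lower, where 38.6% of the 2054 miRNAs tested were higher and 1.27% lower. Of the 4, miR-500b-3p and miR-502-3p had 0 reads in every IgG library and miR-500a-3p at most 7. These 3 arms passed the filter on low counts through the m6A libraries alone, where they are high, so that their calls say little beyond that, and only miR-501-3p had more than 10 reads in some IgG libraries. The median log2 fold change of the 8 members was 2.55, or 1.06 with the arms at 0 set to their bounds, beside 0.83 over all miRNAs tested.

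The signal of miR-500a-3p in the m6A libraries was 1371, 1370 and 1528 RPM, from 781, 1867 and 7599 reads. The IgG libraries held 1, 7 and 0 reads of it, or 1.35, 8.90 and 0 RPM. The groups were far apart in every clone, though the shallow FTO3C3 IgG library can only give a bound. Within clones the ratio was 1017 in FTO1C1 (95% counting interval 182 to 40212, since it rests on a single IgG read), 154 in FTO2D4 and at least 94.96 in FTO3C3, where 0 reads were set to 3. The log2 fold change of miR-500a-3p was 8.33 (SE 0.56, edgeR adjusted p = 9.02e-06). The size of that value rests on the few IgG reads, since it was 10.28 without FTO2D4, which held 7 of the 8 IgG reads, and 7.52 with TMM factors.

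Its relative miR-501-3p held 471, 748 and 549 RPM in m6A and 16.2, 21.6 and 26.8 RPM in IgG, the latter from 12, 17 and 5 reads. The groups did not overlap, and the ratios within FTO1C1, FTO2D4 and FTO3C3 were 29.1, 34.6 and 20.5. The log2 fold change of miR-501-3p was 4.83 (SE 0.35, edgeR adjusted p = 1.28e-05), and 4.06 with TMM factors. For miR-502-3p the m6A libraries held 25, 83 and 335 reads, which put its level at least 10.8-fold, 15.97-fold and 4.19-fold above IgG (edgeR adjusted p = 0.00049). For miR-500b-3p, with 8, 28 and 162 reads, the bounds were at least 3.47-fold, 5.39-fold and 2.02-fold (edgeR adjusted p = 0.00316). Without FTO2D4, miR-500b-3p no longer passed the filter on low counts. The order of the bounds over the clones follows the depth of the IgG libraries and not the level in m6A.

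The remaining arms stood near the IgG level. With 118, 278 and 166 RPM in m6A and 190, 121 and 225 RPM in IgG, miR-532-5p was lower in m6A in FTO1C1 and FTO3C3 and higher in FTO2D4 (log2 fold change 0.03, 95% interval -0.91 to 0.96). This is the arm that carries the RRACH match. Its partner miR-532-3p had 42.1, 31.6 and 37.4 RPM in m6A and 37.8, 48.3 and 26.8 RPM in IgG, and its groups overlapped too (log2 fold change -0.06, 95% interval -0.93 to 0.80). The log2 fold change of miR-501-5p was 0.27 (95% interval -0.57 to 1.11) and that of miR-660-5p 0.26 (95% interval -0.60 to 1.12). All 4 of these values are below the median of 0.83 over all miRNAs, and without miR-6080 in the totals, which moves that median to 0.10, miR-501-5p, miR-532-5p and miR-660-5p turn negative.

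The arm miR-502-5p did not pass the filter on low counts for this comparison. It had 0, 12 and 43 reads in m6A and 5, 10 and 21 reads in IgG, which is 0, 8.81 and 8.65 RPM against 6.74, 12.7 and 113 RPM. The level of 113 RPM in the FTO3C3 IgG library is the highest of this arm anywhere and comes from 21 reads. It was called lower in m6A where the filter was left out (edgeR adjusted p = 0.0256) or FTO1C1 was left out (edgeR adjusted p = 0.00148), and also by DESeq2 (adjusted p = 0.000188). By the study's rule for a methylated miRNA, at least 100 RPM in m6A and a ratio of at least 2 to IgG, 2 of the 9 arms passed, miR-500a-3p and miR-501-3p, against 11.8% of the 2189 miRNAs. That share was recomputed here, and the number of miRNAs behind it is not the one the paper reports.

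**Figure D3:**
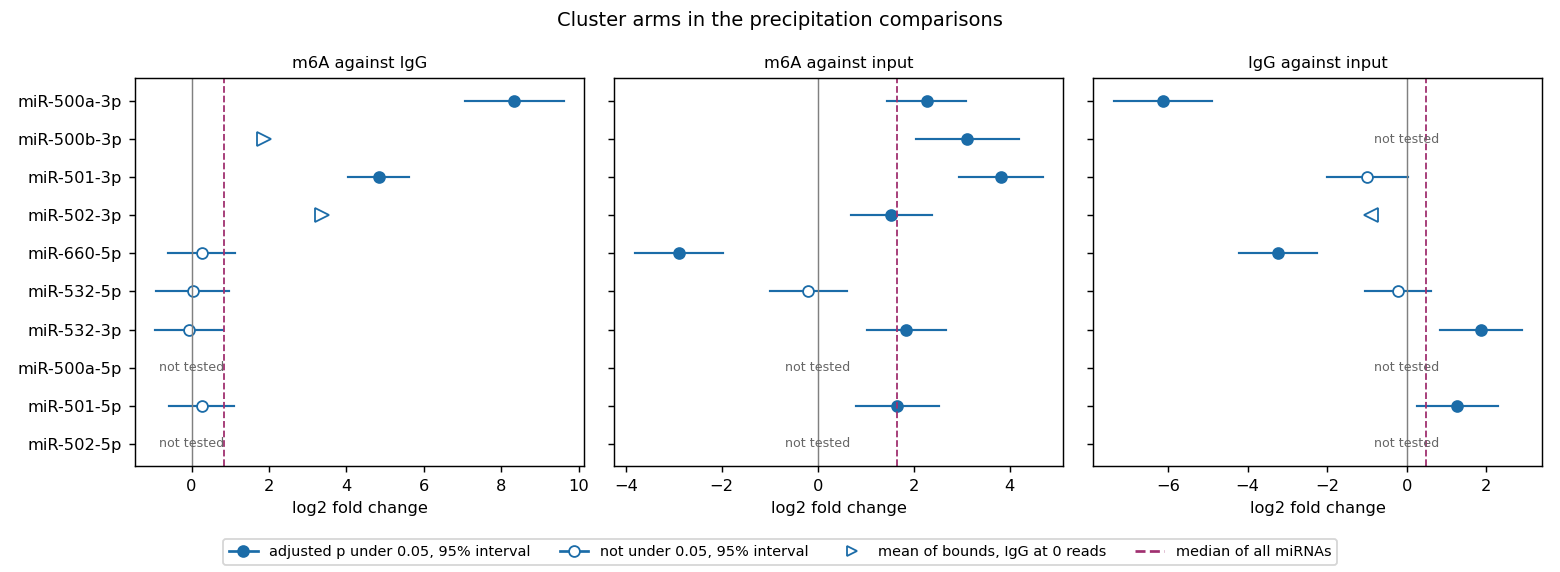
Log2 fold change of each arm with its 95% interval in the 3 precipitation comparisons, filled where the edgeR adjusted p was under 0.05, with a dashed line at the median over all miRNAs tested. Triangles stand at the mean of the within-clone bounds where every IgG library held 0 reads. In the first panel miR-500a-3p at 8.33 and miR-501-3p at 4.83 lie far to the right of the line, and in the second miR-660-5p at -2.90 lies far to its left.

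The third comparison set the m6A precipitate against the input, that is against the small RNA before precipitation. It shares the m6A libraries with the comparison above, and the values are therefore not independent of it. Of the 8 members tested, 6 were higher in m6A and 1 lower, where 66.8% of the 2174 miRNAs tested were higher and 10.5% lower. The median of the members was 1.75 and that of all miRNAs 1.65 (log2), so that each value below is read against that of a typical miRNA.

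The largest difference of the cluster was that of miR-501-3p, from 33.4, 48.6 and 42.7 RPM in the input to 471, 748 and 549 RPM in m6A. The ratios in the 3 clones were 14.1, 15.4 and 12.9 and the log2 fold change was 3.81 (SE 0.43, edgeR adjusted p = 1.51e-08). For miR-500a-3p the ratios were 5.12, 4.29 and 5.13 and the log2 fold change was 2.27 (SE 0.40, edgeR adjusted p = 1.39e-05). Although miR-500a-3p had the larger ratio to IgG, miR-501-3p thus had the larger ratio to input, in all 3 clones. With 3.12 miR-500b-3p also lay above the median (SE 0.52, edgeR adjusted p = 6.13e-06), from 2, 5 and 4 reads in the input, so that it passed the filter through the m6A libraries alone. The values of miR-532-3p (1.85), miR-501-5p (1.66) and miR-502-3p (1.54) were called higher but lay within 0.2 of the overall median. Of these arms, miR-501-5p also passed the filter through the m6A libraries alone.

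The opposite was found for miR-660-5p, which fell from 231, 321 and 214 RPM in the input to 42.1, 19.8 and 43.0 RPM in m6A. The ratios were 0.183, 0.0617 and 0.201, and the log2 fold change of miR-660-5p was -2.90 (SE 0.45, edgeR adjusted p = 2.16e-06), at the 2.85th percentile of all miRNAs tested. For miR-532-5p the ratios were 0.652, 1.24 and 0.813 and the log2 fold change of -0.19 (95% interval -0.99 to 0.60) did not pass the test, though the whole interval lay below the overall median. With scaling by TMM factors, which brings that median to 0.10, 2 arms were higher (miR-501-3p and miR-500b-3p) and 2 lower (miR-660-5p and miR-532-5p), so only miR-501-3p, miR-500b-3p and miR-660-5p kept their calls under it. Over all miRNAs, 575 of 2174 were higher and 614 lower with TMM factors. With DESeq2 miR-501-3p alone was called higher, where 486 of 2189 miRNAs were higher. The arm miR-500a-3p missed the threshold by TMM (edgeR adjusted p = 0.0536) and by DESeq2 (adjusted p = 0.0671).

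The fourth comparison asked what the control antibody carries over from the input, and again shares libraries with the others. Of the 7 members tested, 2 were higher in IgG and 3 lower, where 36.8% of the 1941 miRNAs tested were higher and 21.8% lower. The median of the members was -0.99, or -0.89 with miR-502-3p at its bound, beside 0.49 over all miRNAs. Few IgG reads fell on miR-500a-3p, which went from 377, 466 and 447 reads in the input to 1, 7 and 0 (log2 fold change -6.14, SE 0.63, edgeR adjusted p = 4.60e-21). This fit found no spread in error between miRNAs, which makes its p-values very small. For miR-502-3p the 26, 45 and 19 input reads against 0 put it at least 4.56-fold and 8.08-fold lower in FTO1C1 and FTO2D4, while in FTO3C3 the shallow IgG library could not show a difference (edgeR adjusted p = 3.00e-08). Both arms passed the filter through the input libraries alone, where they are high, and without FTO2D4 the value of miR-500a-3p was -7.86.

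In IgG as in m6A, miR-660-5p was lower than in the input, with 29.7, 21.6 and 32.2 RPM against 231, 321 and 214 (log2 fold change -3.24, SE 0.50, edgeR adjusted p = 8.31e-10). The levels of miR-660-5p in the precipitates of the 2 antibodies overlapped. The third related arm, miR-501-3p, was lower in IgG in all 3 clones, at ratios of 0.485, 0.444 and 0.629, but did not pass the test (log2 fold change -0.99, SE 0.52, edgeR adjusted p = 0.0923). Its value depended on the scaling, since it passed with TMM factors (edgeR adjusted p = 0.00346) and turned to 0.16 with totals that leave out miR-6080. Higher in IgG were miR-532-3p, at ratios of 3.35 to 4.09 (log2 fold change 1.86, SE 0.53, edgeR adjusted p = 0.0011), and miR-501-5p, at ratios of 1.43 to 6.26 (log2 fold change 1.27, SE 0.52, edgeR adjusted p = 0.0272). Neither call held with DESeq2 (adjusted p = 0.0545 and 0.318), and that of miR-501-5p was also lost with TMM factors (edgeR adjusted p = 0.143), without FTO1C1 (0.135) and without FTO3C3 (0.209). Both of these arms passed the filter through the IgG libraries alone, where they are high, so that their calls say little beyond that.

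The make-up of the cluster reads does not depend on the library totals. The 4 related 3p arms together held 56.5 ± 1.51% of the cluster reads with scrambled siRNA, 55.2 ± 6.47% with FTO siRNA and 42.9 ± 2.15% in the input. In m6A their share was 87.6 ± 1.85%, and in IgG it was 7.77 ± 3.46%, so that the 3 precipitation groups did not overlap. The share of miR-500a-3p alone went from 35.3 ± 2.68% in the input to 59.8 ± 5.80% in m6A and 1.29 ± 1.87% in IgG. That of miR-501-3p went from 4.93 ± 0.488% to 24.5 ± 4.002% and 6.48 ± 1.63%.

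The course of miR-660-5p and miR-532-5p differed. The share of miR-660-5p was 30.2 ± 2.80% in the input, 1.496 ± 0.639% in m6A and 8.33 ± 1.36% in IgG. That of miR-532-5p was 24.2 ± 1.56% in the input, 7.68 ± 2.78% in m6A and 52.5 ± 8.40% in IgG. The cluster reads of the IgG libraries were thus led by miR-532-5p, and those of the m6A libraries mostly miR-500a-3p and miR-501-3p. Since reads may have been exchanged between the related arms, the 4 were also summed before the fit. Their sum had a log2 fold change of -0.02 for FTO knockdown (edgeR adjusted p = 0.948), 6.42 for m6A against IgG (edgeR adjusted p = 3.18e-06), 2.54 for m6A against input (edgeR adjusted p = 4.09e-06) and -3.88 for IgG against input (edgeR adjusted p = 9.26e-14).

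**Figure D4:**
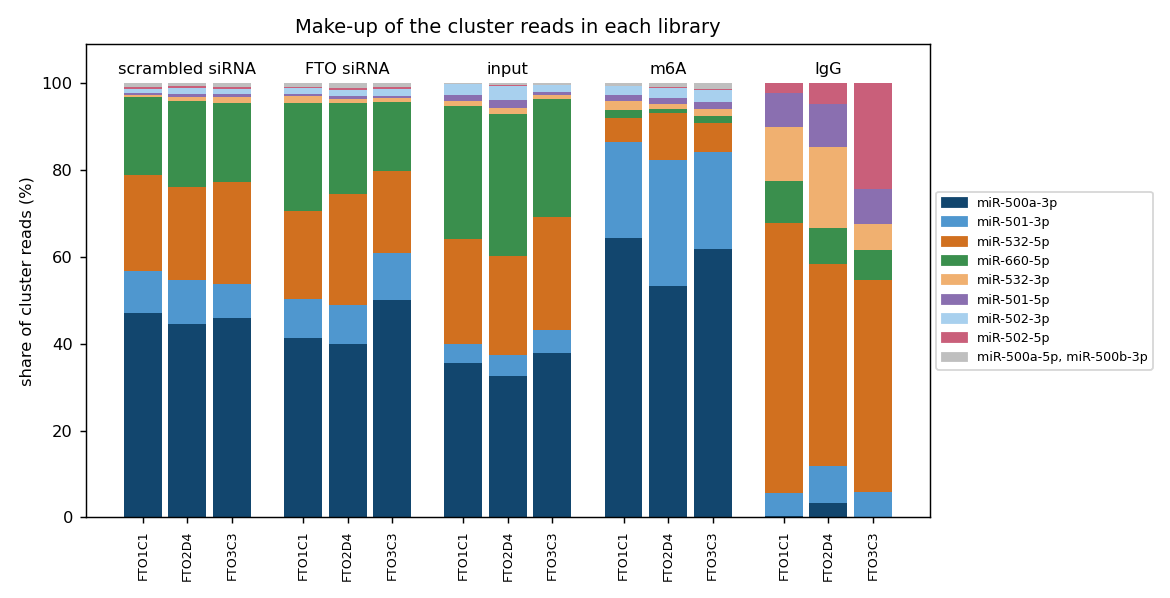
Share of each arm in the summed reads of the cluster (percent) in each of the 15 libraries. The 2 blue shades at the bottom, miR-500a-3p and miR-501-3p, fill most of the m6A bars, and miR-532-5p in orange holds 46.6 to 62.1% of the IgG bars.

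The 2 arms of a hairpin are read in the same library, so their ratio is also free of the totals. The 3p arm was the more abundant of miR-500a (log2 ratio 6.49 ± 0.209 with scrambled siRNA), miR-501 (3.74 ± 0.576) and miR-502 (1.65 ± 0.2997), and the 5p arm of miR-532 (-4.77 ± 0.625). After FTO knockdown the ratio of the arms changed by -0.24 ± 0.391 for miR-500a, 0.12 ± 0.722 for miR-501, 0.21 ± 0.241 for miR-502 and 0.41 ± 1.10 for miR-532. Of these 4 hairpins only miR-502 changed the same way in the 3 clones, by 0.10, 0.48 and 0.04. With 3 pairs the exact sign-flip permutation test cannot go below p = 0.25, so none of the differences of arms can pass a threshold of 0.05.

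In the precipitates the arms of miR-501 parted. Relative to the input, the log2 ratio of 3p to 5p was higher in m6A by 2.33, 3.02 and 0.99 in the 3 clones (mean 2.11 ± 1.03, exact permutation p = 0.25, two-sided). In IgG it was lower by 2.23, 1.68 and 3.32 (mean -2.41 ± 0.830, exact permutation p = 0.25), where the 2 arms were about equal, at 12, 17 and 5 reads of the 3p and 18, 20 and 7 reads of the 5p arm. The arms of miR-532 moved otherwise, since the log2 ratio of 3p to 5p was higher than in the input in both precipitates, by 2.07 ± 1.03 in m6A and by 2.09 ± 0.565 in IgG. For miR-502 the mean difference between m6A and input was 0.04 ± 0.225 with counts of 0 set to 3, and -0.82 with 0.5 added to both arms instead, so its direction rests on the treatment of the 0 counts.

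**Figure D5:**
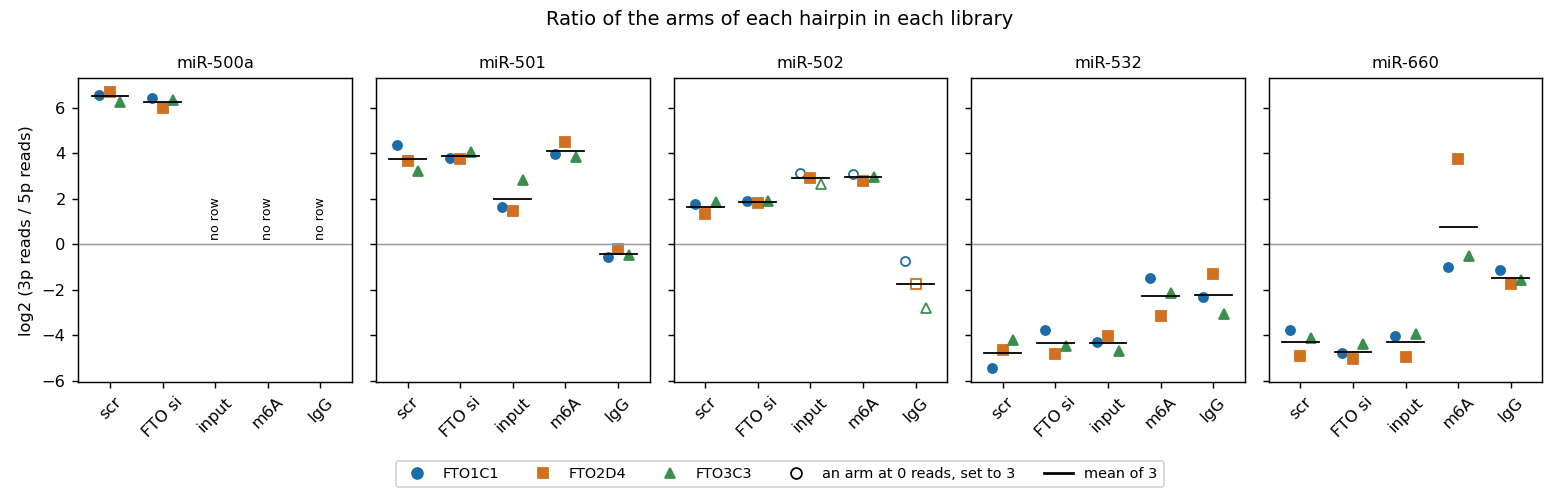
Log2 ratio of 3p to 5p reads of 5 hairpins in each library, with a line at the mean of 3 and open symbols where an arm had 0 reads and was set to 3. For miR-501 the m6A libraries lie between 3.82 and 4.47 and the IgG libraries between -0.58 and -0.23, whereas for miR-532 the 2 precipitates overlap.

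The other mature arms of the same locus, miR-188-5p, miR-188-3p, miR-362-5p, miR-362-3p, miR-500b-5p and miR-660-3p, were followed as a fixed list. Of these 6 arms, 5 were counted in the knockdown and 3 in the precipitation libraries, and miR-500b-5p in neither. None of the 5 passed the test after FTO knockdown, where 5.48% of all miRNAs were called. With 22, 23 and 27 reads against 16, 11 and 9, miR-362-3p was the only arm of the locus whose groups did not overlap (log2 fold change 0.57, SE 0.29, edgeR adjusted p = 0.244), where 26.7% of all miRNAs were higher without overlap.

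For m6A against IgG both arms tested were higher, beside 38.6% of all miRNAs, miR-362-5p by a log2 fold change of 1.39 (SE 0.44, edgeR adjusted p = 0.0327) and miR-660-3p by 2.84 (SE 0.90, edgeR adjusted p = 0.0325). The latter stood on 1 clone, with 12, 358 and 148 reads in m6A, which is 21.1, 263 and 29.8 RPM. The library of FTO2D4 was far above those of FTO1C1 and FTO3C3, and without it the log2 fold change of miR-660-3p was 0.94 (edgeR adjusted p = 0.231), whereas without FTO1C1 it was 4.42. The call of miR-362-5p was lost with any 1 clone left out (edgeR adjusted p = 0.0595 to 0.170), and with TMM factors or DESeq2 neither arm was called. Both arms passed the filter on low counts through the m6A libraries alone, where they are high, so that their calls say little beyond that. The ratio of the arms of miR-660, added to the list of hairpins after its values were seen, changed by -1.01, -0.13 and -0.26 (log2) after FTO knockdown, lower in all 3 clones (exact permutation p = 0.25). It was higher than in the input by 3.02, 8.70 and 3.40 (log2) in m6A and by 2.88, 3.20 and 2.35 in IgG. Relative to the 5p arm, both precipitates thus held more of the 3p arm than the input, as for miR-532. The arms behind these ratios moved otherwise in IgG. There miR-660-3p was itself below the input, at ratios of 0.950, 0.619 and 0.766, and miR-532-3p above it.

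The miRNAs whose pattern was most like that of the summed cluster over the 9 precipitation libraries were found by the root mean square difference of centred log2(RPM + 10) values, among 2172 candidates. The nearest were miR-4750-5p with a difference of 0.188, miR-4763-5p with 0.241, miR-4282 with 0.259, miR-671-5p with 0.268 and miR-550b-3p with 0.315 log2 units. The nearest, miR-4750-5p, held 713 ± 133 RPM in the input, 1996 ± 193 in m6A and 251 ± 57.9 in IgG, beside 841, 2391 and 342 RPM for the cluster. The summed pattern is largely that of miR-500a-3p and miR-501-3p in m6A and of miR-532-5p in IgG.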

How the data were processed

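Small RNA of 15 libraries, 3 in each of 5 groups, was sequenced. The authors trimmed adapters with cutadapt (version not given in the sources used here), kept reads of 16 to 28 bases and matched them to the mature miRNAs of miRBase release 20 by exact matches of at least 7 bases that covered at least 17. A read that fitted several miRNAs went to the one with most matching bases. For the knockdown libraries the paper states that the siRNA sequences were added to the reference. The authors deposited raw read counts per miRNA, in 1 table for the knockdown and 1 for the precipitation libraries, and comparisons were made within a table only. Only rows named as human miRNAs (hsa-) were kept, and the library totals are sums over these rows.

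RPM (relative to all miRNA reads of the library), within-clone ratios, shares and ratios of arms were computed from the counts. Counts of 0 were set to 3 reads for ratios, which gives a bound. The counting interval of a ratio and the bounds cover counting error only, since reads carry no molecular identifiers. The 95% intervals of log2 fold changes come from the edgeR fit, so they also hold the spread of the difference between clones. Differences were tested over all miRNAs by the quasi-likelihood method of edgeR (glmQLFit, glmQLFTest), after filterByExpr at a minimum count of 10, with all miRNA reads as the library size, no scaling factors and the cell line as a block, adjusted by the Benjamini-Hochberg method and called at 0.05. The test was checked on simulated counts. Ratios of arms were tested by exact sign-flip permutation. R 4.3.3 ran edgeR 4.0.16, DESeq2 1.42.0 and limma 3.58.1, and Python 3.11.15 ran pandas 2.3.3, numpy 2.4.6, matplotlib 3.10.9 and scipy 1.17.1. Names in the text are the 10 listed arms, 6 other arms of the locus and the 5 miRNAs nearest in pattern. These lists and the tests were chosen with earlier results of these data known.

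Libraries were paired by the clone named in their titles. Paired deviations from the group means correlated at 0.307, 0.202 and 0.244 for FTO and scrambled siRNA, at 0.0292 to 0.0503 for m6A and IgG, at -0.0942 to -0.0217 for m6A and input and at -0.0104 to 0.0914 for IgG and input. Libraries of a group differed by more than sampling noise (chi-square per degree of freedom 7.79 to 166). Alternatives were TMM factors, DESeq2, no filter, no block, totals without miR-6080, all 9 precipitation libraries in 1 fit, the related 3p arms summed, other cutoffs, and each clone left out.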

Additional observations from a re-analysis of the deposited data

How the results depend on the processing

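After FTO knockdown, no alternative moved the count of arms called from 0. Without FTO1C1, 0 of all 2363 miRNAs tested were called in either direction. For m6A against IgG, 4 arms higher and 0 lower were called with the cell line block and without it, and likewise 6 and 1 for m6A against input and 2 and 3 for IgG against input, so dropping the pairing changed no call of these counts, while over all miRNAs the calls after knockdown fell from 130 to 41. With the related 3p arms summed, 1 was higher against IgG and 3 against input, since 4 arms became 1. Over all miRNAs, 789 of 2051 and 1448 of 2171 were higher there. For m6A against IgG, 1 arm (miR-502-5p) was called lower with DESeq2, without the filter, with all 9 libraries in 1 fit, and without FTO1C1 (0 to 1 over the clones left out). In these settings, in that order, 254 of 2189, 28 of 2189, 25 of 2181 and 20 of 2152 miRNAs were lower. DESeq2 gave miR-500b-3p no adjusted p, so its higher call was absent there. It was not tested with totals without miR-6080 or without FTO2D4. For m6A against input the counts were 2 higher and 2 lower with TMM factors and 1 and 2 with DESeq2. Over all miRNAs, 575 of 2174 were higher and 614 lower with TMM factors, and 486 of 2189 and 588 with DESeq2. In m6A against input, miR-502-5p was also called higher without the filter (edgeR adjusted p = 0.021) and without FTO1C1 (edgeR adjusted p = 0.00389). For IgG against input 1 arm was higher with TMM factors (miR-532-3p) and with DESeq2 (miR-502-5p, adjusted p = 0.0485), and 4 with totals that leave out miR-6080. With a clone left out it was 1 to 2, the lower count without FTO3C3. With all 9 libraries in 1 fit, 5 arms were lower. Over all miRNAs, 559 of 1941 were higher with TMM factors and 442 of 2189 with DESeq2. With totals that leave out miR-6080, 1231 of 1975 were higher, and without FTO3C3 600 of 1958. In the fit of all 9 libraries, 436 of 2181 were lower. In this comparison miR-501-3p was called lower with TMM factors (edgeR adjusted p = 0.00346) and DESeq2 (adjusted p = 0.00871). Without the filter and with all 9 libraries in 1 fit, miR-502-5p was called higher (edgeR adjusted p = 6.81e-08 and 0.000419). With totals that leave out miR-6080, miR-502-3p was not tested. The cause of these moves was not tested.

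Some values changed sign. With TMM factors the log2 fold changes after knockdown were -0.12 for miR-500a-5p, -0.0778 for miR-500b-3p, -0.21 for miR-501-3p, -0.0186 for miR-502-3p, -0.26 for miR-502-5p, -0.15 for miR-660-5p and -0.15 for miR-188-3p, and with DESeq2 -0.21 for miR-501-3p and -0.15 for miR-660-5p. With a clone left out they ranged from -0.195 to 0.0499 for miR-500a-3p, from -0.0048 to 0.36 for miR-500a-5p, from -0.25 to 0.69 for miR-500b-3p, from -0.16 to 0.22 for miR-501-3p, from -0.25 to 0.092 for miR-501-5p, from -0.10 to 0.23 for miR-502-5p, from -0.20 to 0.86 for miR-532-3p, from -0.21 to 0.039 for miR-532-5p, from -0.76 to 0.0749 for miR-188-5p and from -0.17 to 0.0471 for miR-362-5p. For m6A against IgG, TMM factors, DESeq2 and totals without miR-6080 gave -0.49, -0.53 and -0.44 for miR-501-5p, -0.71, -0.75 and -0.64 for miR-532-5p, and -0.49, -0.53 and -0.43 for miR-660-5p. With a clone left out, miR-532-3p ranged from -0.25 to 0.29 and miR-532-5p from -0.57 to 0.40. For m6A against input, miR-502-3p was at -0.0039 with TMM factors and -0.0273 with DESeq2, and miR-532-5p at 0.27 without miR-6080 and between -0.45 and 0.0053 with a clone left out. For IgG against input, totals without miR-6080 gave 0.16 for miR-501-3p, 0.91 for miR-532-5p (edgeR adjusted p = 0.0326) and 0.79 for miR-660-3p, TMM factors and DESeq2 gave -0.37 and -0.39 for miR-362-5p, and leaving out a clone gave -0.40 to 0.11 for miR-532-5p and -0.31 to 0.76 for miR-362-5p. The ratio of arms of miR-502 in m6A against input was -0.82 with 0.5 added to both arms and -0.0867 to 0.12 with a clone left out, and after knockdown that of miR-501 ranged from -0.25 to 0.48 and that of miR-532 from -0.22 to 0.76.

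Without miR-500a-3p in the sum, miR-501-3p, miR-532-5p and miR-660-5p held 16.97%, 41.3% and 34.3% with scrambled siRNA, 17.4%, 38.2% and 36.3% with FTO siRNA, 7.64%, 37.5% and 46.6% in the input, and 60.8%, 18.7% and 3.92% in m6A. The IgG library of FTO3C3 is the shallowest, and there a count of 0 bounds a level no lower than 3 reads of 186446.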
